A study of Homo sapiens with 21 samples.

Results

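The genes ATF4, ATF3, DDIT3, TRIB3, DDIT4, SESN2, CEBPB, STC2, PPP1R15A and ASNS are transcription factors and effectors of the integrated stress response. They were taken by symbol from the gene identifiers of the counts table, which gave 10 of 62656 genes, each with 1 identifier. Their RNA was followed in SH-SY5Y, a line from a human neuroblastoma, in 7 groups of 3 libraries, 21 in all. After 11 days of differentiation to neuron-like cells, wild type dishes received 1 of 6 per- and polyfluoroalkyl substances at 30 µM for 24 h. The compounds were the carboxylic acid PFOA, the sulfonic acid PFOS, the longer-chain carboxylic acid PFDA, the longer-chain sulfonic acid PFDS, the fluorotelomer sulfonic acid 8:2 FTS and the fluorotelomer alcohol 8:2 FTOH. The last group was the control. The dosing solutions contained 1% methanol, and whether control dishes also received methanol is not given in the sources used here. All libraries came from 1 cell line, and no label says that the libraries of a group were separate cultures of cells. The p-values below therefore reflect the scatter among these libraries, part of which may be technical.

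In the integrated stress response, kinases that sense unfolded proteins, amino acid shortage, double-stranded RNA or haem shortage phosphorylate the translation initiation factor eIF2. General protein synthesis falls, while the mRNA of ATF4 is translated more, because of upstream reading frames in its leader. ATF4 protein then switches on genes of amino acid supply and of stress control, so much of the control over ATF4 is not visible in its mRNA level. In neurons the pathway is studied in relation to protein folding stress, mitochondrial stress and nutrient shortage.

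The total count per library lay between 7680024 and 30429746, with 22179910 to 24905803 in the 3 control libraries. Genes of the mitochondrial chromosome took 6.11% of the counts in 8:2 FTOH replicate 3 and 6.33% in control replicate 3. Of 12 markers of adrenergic neuroblasts and neurons, 11 were at 1 CPM (the read count scaled to library size) or more in control, the exception being TH, which encodes tyrosine hydroxylase. Their summed level was 8722 to 10622 CPM in the compound libraries and 10158 to 10683 CPM in control. Only PFDS, at 8770 to 10622 CPM, reached into the control range. With each of the other compounds all libraries lay below control, the highest at 9872 CPM with PFOS. For the 6 compounds combined, 3 of these markers fell, the neurofilament gene NEFM (-0.43, adjusted p = 0.0457), GAP43 (-0.34, adjusted p = 0.00978) and MAP1B (-0.29, adjusted p = 0.0397). The summed level of 4 Schwann cell markers was 7.15 to 12.3 CPM in the compound libraries and 7.84 to 10.1 CPM in control, with S100B under 1 CPM in control. For 9 mesenchymal markers it was 318 to 388 CPM in the compound libraries and 359.6 to 370.4 CPM in control, with PRRX1, COL1A2 and YAP1 under 1 CPM there. For 3 markers of cycling cells the sum was 1239 to 1508 CPM with the compounds and 1404 to 1470 CPM in control. Again only PFDS, at 1335 to 1508 CPM, reached into the control range, and the highest library of the other compounds was at 1393 CPM, with PFOA. Of these markers, DESeq2 called MKI67 lower for PFOA and for the 6 compounds together. In bulk RNA, fewer cells of a type and less RNA per cell cannot be told apart, and the part of these shifts in the results was not tested.

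ATF4 binds DNA with C/EBP proteins at elements that contain the letters TGATGNAA, and cyclic AMP response elements of the letters TGACGTCA bind related factors. The windows from 250 bases before to 50 after each start site (17 RefSeq windows, GRCh38.p14, all 10 genes matched) were searched on both strands, and 3 stretches are shown because they hold these letters, in capitals:
ATF3 (chr1:212565194-212565245, plus strand): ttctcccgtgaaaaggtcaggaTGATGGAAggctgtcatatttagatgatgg
ASNS (chr7:97872447-97872498, minus strand): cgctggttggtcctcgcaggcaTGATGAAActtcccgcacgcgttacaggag
PPP1R15A (chr19:48872341-48872392, plus strand): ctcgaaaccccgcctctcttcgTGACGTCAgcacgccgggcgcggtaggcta
TGATGNAA was present in 2 of the 10 genes, at -191 to -184 from the start site in ATF3 and at -68 to -61 in ASNS, where 4.46% of 27305 genes had it in a window of that length. TGACGTCA, which reads the same on both strands and was searched after the windows had been read, was at -58 to -51 in PPP1R15A, where 2.25% of all genes had it. A match is a description of the letters, and its absence from a window says nothing about the other 7 genes.

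All 10 genes were expressed in every library, with 67 to 4818 reads per gene and library, and all 10 passed the filter on low counts. Counting error alone set an exact 95% Poisson half-width of 2.83% to 24.7% of the count. Levels are given in CPM scaled by the trimmed mean of M-values (TMM). Per kilobase of exon, ATF4 was the most abundant of the 10 in control at 58.5 ± 5.57 CPM per kb (SD, n = 3), followed by DDIT4 at 23.4 ± 6.89. TRIB3 (9.85 ± 0.623 CPM per kb), PPP1R15A (8.95 ± 1.52), SESN2 (8.48 ± 0.832) and DDIT3 (7.76 ± 1.58) formed a middle range whose neighbours did not differ beyond their SDs. ATF3 (4.37 ± 0.579), CEBPB (4.26 ± 0.897), ASNS (3.00 ± 0.555) and STC2 (2.63 ± 0.884) were lowest. The lengths used include exon bases shared with other genes, where reads touching both genes were dropped. Such bases made up 49.3% of ASNS (with ENSG00000284707) and 27.2% of DDIT3 (with MARS1). The values of these genes per kilobase are thus too low, and their places in the order are uncertain. Set in order of group means, the control mean was the lowest of the 7 groups for 6 genes (ATF3, DDIT4, SESN2, CEBPB, STC2 and ASNS), the sixth for DDIT3 and TRIB3, the fourth for ATF4 and the second highest for PPP1R15A. The highest mean belonged to PFOS for 5 genes, to 8:2 FTOH for 3 and to 8:2 FTS for 2. In none of the 10 orders did all libraries of a group lie clear of the next group, so neighbouring groups were never apart beyond their replicates.

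**Figure D1:**
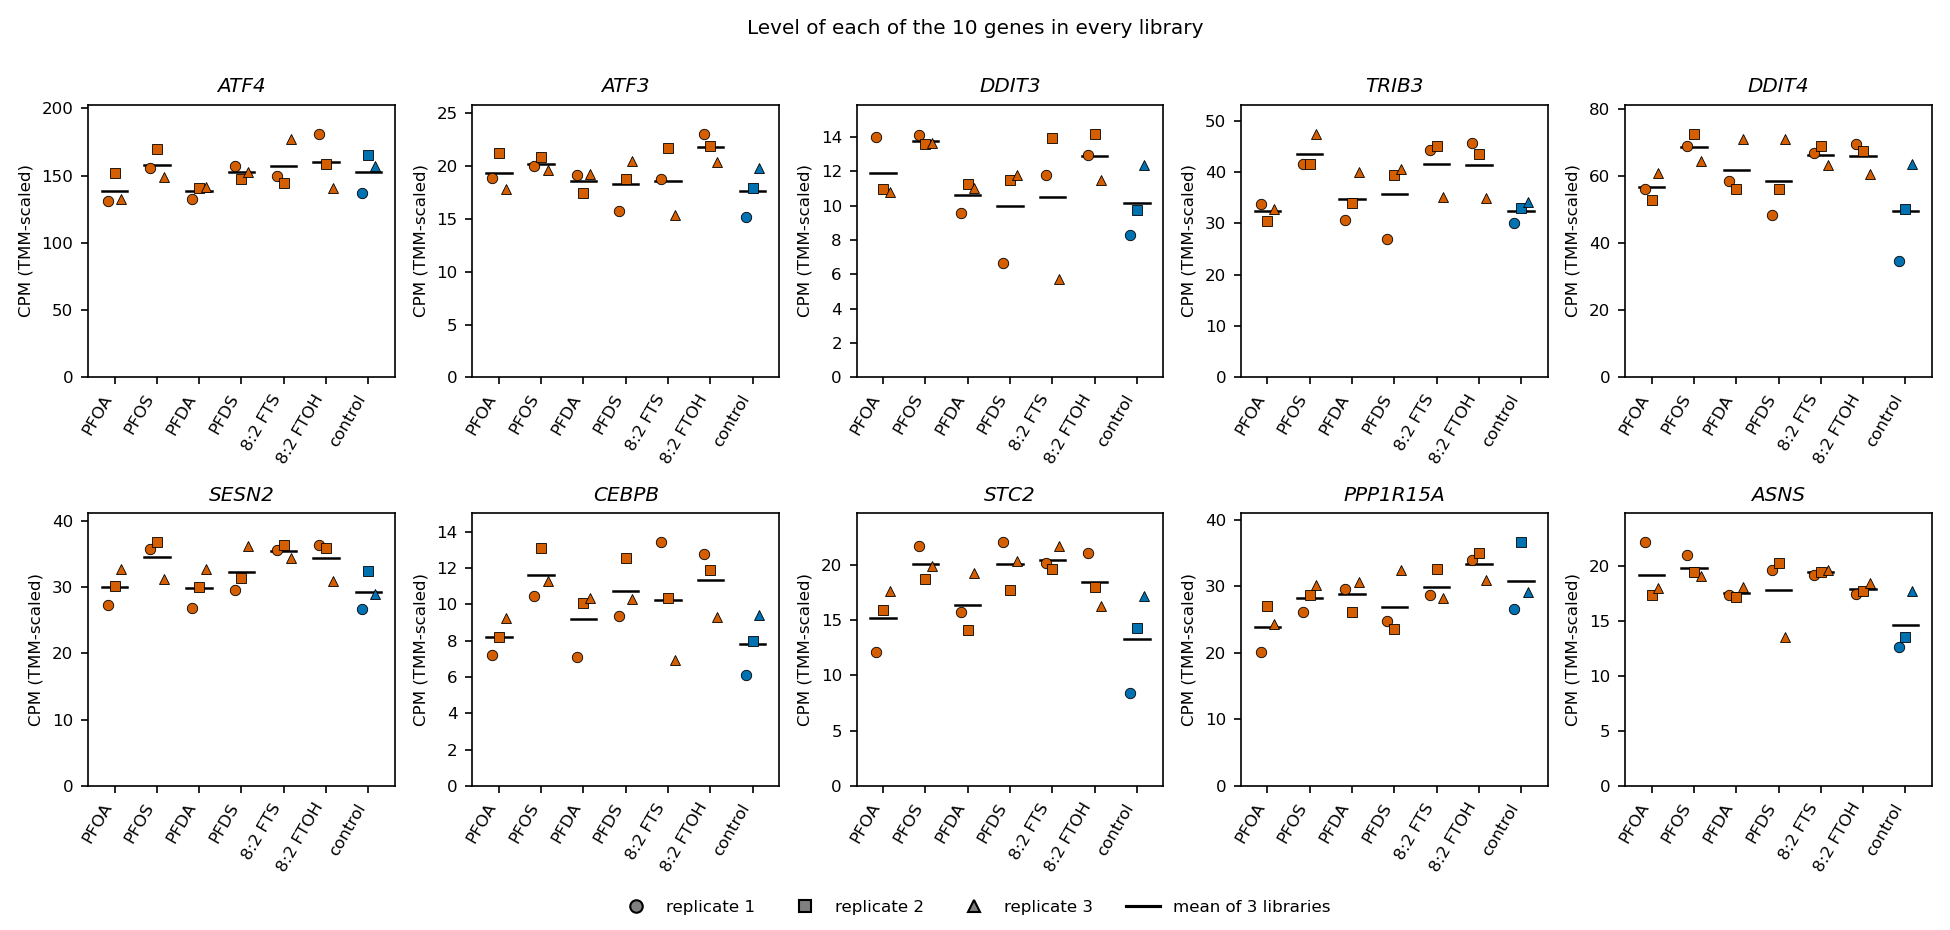
Level of each of the 10 genes in CPM (vertical axes from 0, TMM-scaled) in every library of the 6 compound groups (orange) and the control group (blue). Symbols mark the replicate and bars the mean of 3 libraries. Control replicate 1 is the lowest control for all 10 genes, and 8:2 FTS replicate 3 is the lowest of all libraries for DDIT3 at 5.72 CPM.

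The first question was whether any compound moved these genes relative to control. Against control, 50 of the 60 fold changes (10 genes, 6 compounds) were above 0, and they ran from -0.36 to 0.62 on the log2 scale. Of all genes, 50.5% to 51.8% were above 0 in these comparisons. The count above 0 was 38 of 60 with control replicate 1 left out, 55 with control replicate 2 left out and 53 with control replicate 3 left out. None of the 60 passed at an adjusted p of 0.05 over the 24879 genes tested (edgeR quasi-likelihood test, lowest adjusted p = 0.190), although 24 had an unadjusted p under 0.05. The DESeq2 test gave an adjusted p to all 10 genes for 8:2 FTS, 8:2 FTOH, PFOS and PFDS, to 2 for PFOA and to 0 for PFDA, and called 0. Of all genes it called from 0.0764% with PFOS to 0.514% with PFOA. All 60 of the 95% intervals lay within a 2-fold change either way, and 35 within 1.5-fold. In simulated libraries of the same depth and spread, the procedure recovered 25 of 50 genes planted at 1.5-fold and 35 of 50 at 2-fold for PFOA against control. At the smallest fold planted, which lay below 1.5-fold, the procedure recovered 4 of 50. Among such genes, changes of these sizes were thus often missed at this depth and number of libraries, the smallest most often. The planted genes were drawn from expressed genes at large, with their own spread, so these rates are not those of the 10 genes. All 6 comparisons share the same 3 control libraries.

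The compounds differed in how many of the 10 genes reached an unadjusted p under 0.05. With PFOS it was 7 (DDIT3, TRIB3, DDIT4, SESN2, CEBPB, STC2 and ASNS), against a background of 6.83% of all genes in either direction. The median fold change of the 10 was 0.43 on the log2 scale, where all genes had a median of 0.01. With 8:2 FTOH it was also 7 (background 7.83%, median of the 10 genes 0.33), and with 8:2 FTS 6 (background 7.77%, median 0.32). PFDS gave 2, CEBPB and STC2 (background 5.58%, median 0.15). PFOA gave 2, ASNS above control and PPP1R15A below it (background 10.1%, median 0.10), and PFDA gave 0 (background 8.43%, median 0.09). Single libraries moved these counts and also the share of all genes. Without control replicate 1 the count was 1 for 8:2 FTOH (median 0.22, background 7.2%) and 3 for 8:2 FTS (median 0.22, background 7.84%). For PFOS it was then 5 (median 0.30, background 6.09%). Without replicate 1 of 8:2 FTOH its count was 2 (background 8.25%), and without replicate 2 it was 4 (background 6.89%). Without control replicate 3 the count was 4 for PFOA (background 12%), 3 for PFDA (background 8.89%) and 4 for PFDS (background 7.21%). The PFDS count was 1 without its replicate 2 (background 5.25%) and 4 without its replicate 3 (background 9.66%). The PFOA count was 0 without its replicate 1 (background 5.69%) and 1 without control replicate 2 (background 6.32%). The PFDA count was 1 without control replicate 1 (background 8.41%) or its own replicate 2 (background 5.95%). After adjustment, with 0 of the 10 genes called, the share of all genes called was 0.0322% with PFOA, 0.0241% with PFOS, 0.00804% with PFDA and 0.0241% with PFDS. It was 0.0844% with 8:2 FTS and 0.0322% with 8:2 FTOH. The 10 genes were chosen with earlier results of these data known, so their counts beside the shares of all genes are descriptions.

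The count of genes whose 3 compound libraries all lay above all 3 control libraries followed a similar order. It was 6 for PFOS (DDIT3, TRIB3, DDIT4, CEBPB, STC2 and ASNS), where 6.62% of all genes did the same. For 8:2 FTS it was 4 (TRIB3, SESN2, STC2 and ASNS, background 6.64%), for 8:2 FTOH 2 (ATF3 and TRIB3, background 5.95%) and for PFDS 1 (STC2, background 3.72%). PFOA and PFDA had 0 (backgrounds 7.45% and 7.92%). No gene of the 10 had all libraries of a compound below all control libraries, where the background was 8.46% with PFOA, 7.4% with PFOS, 7.85% with PFDA, 4.53% with PFDS, 7.17% with 8:2 FTS and 6.98% with 8:2 FTOH.

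**Figure D2:**
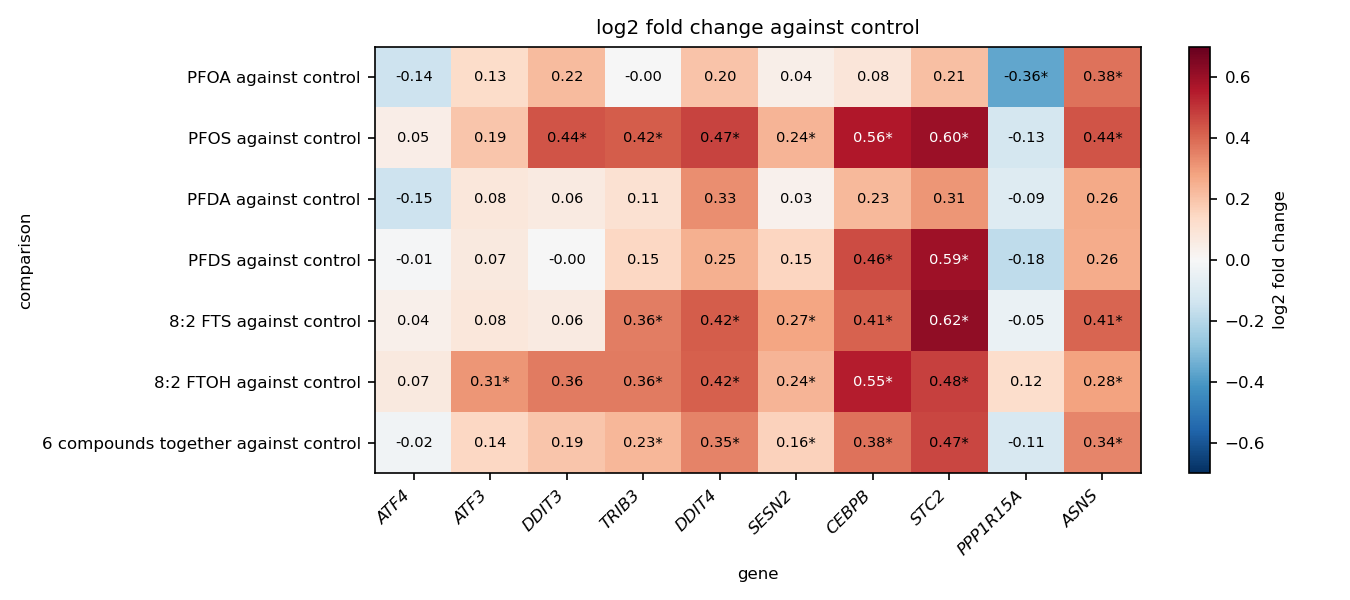
Log2 fold change of the 10 genes (columns) for each compound against control and for the 6 compounds together against control (rows). Color runs from blue (below control) to red (above control), and an asterisk marks an unadjusted p under 0.05, while no value passed after adjustment over all genes. The PFOS and 8:2 FTOH rows hold 7 marks each and the PFDA row 0.

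Among the transcription factors, ATF4 (ENSG00000128272, chromosome 22, 39519695 to 39522683, plus strand, build hg38) had fold changes of at most 0.15 either way. Its levels were 155.6, 169.7 and 148.8 CPM with PFOS, 149.9, 144.4 and 177.1 CPM with 8:2 FTS and 181.0, 158.3 and 140.5 CPM with 8:2 FTOH, against 136.8, 164.9 and 157.2 CPM in control. With PFDS it stood at 157.0, 147.2 and 152.6 CPM, with PFOA at 130.8, 152.0 and 132.6 CPM and with PFDA at 132.3, 140.8 and 141.5 CPM. Every compound group overlapped the control range. The fold changes ran from -0.15 for PFDA (SE 0.08, 95% interval -0.32 to 0.02) to 0.07 for 8:2 FTOH (SE 0.08, -0.10 to 0.24), the narrowest intervals of the 10 genes.

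DDIT3 (ENSG00000175197, chromosome 12, 57516588 to 57521737, minus strand) encodes CHOP, a transcription factor tied to cell death in prolonged stress. With PFOS it was at 14.1, 13.6 and 13.6 CPM and with 8:2 FTOH at 12.9, 14.2 and 11.5 CPM, against 8.31, 9.76 and 12.4 CPM in control. The PFOS libraries were all above the control libraries, by 0.44 on the log2 scale (SE 0.20, interval 0.03 to 0.86, adjusted p = 0.719). With 8:2 FTS the libraries were at 11.8, 13.9 and 5.72 CPM and with PFDS at 6.67, 11.5 and 11.8 CPM, so a single low library in each lay under the whole control range. PFOA (13.97, 11.0 and 10.8 CPM) and PFDA (9.57, 11.3 and 11.0 CPM) overlapped control. DDIT3 shares 355 exon bases (27.2% of its length) with MARS1 and 58 with MBD6, both on the opposite strand. Reads were counted without regard to strand and reads touching more than 1 gene were dropped, so the DDIT3 values are uncertain.

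CEBPB (ENSG00000172216, chromosome 20, 50190830 to 50192668, plus strand) encodes C/EBP beta, which pairs with ATF4 on DNA. It was at 10.5, 13.1 and 11.3 CPM with PFOS, 12.8, 11.9 and 9.31 CPM with 8:2 FTOH and 9.37, 12.6 and 10.3 CPM with PFDS, against 6.13, 7.96 and 9.42 CPM in control. The PFOS libraries were clear of control, while the lowest library with 8:2 FTOH and with PFDS lay just under the highest control. The fold changes were 0.56 for PFOS (SE 0.19, adjusted p = 0.518), 0.55 for 8:2 FTOH (SE 0.19, adjusted p = 0.401) and 0.46 for PFDS (SE 0.19, adjusted p = 0.787). With 8:2 FTS its libraries spread from 6.92 to 13.4 CPM, the widest range of any group for this gene. PFDA gave 7.13, 10.1 and 10.4 CPM and PFOA 7.20, 8.21 and 9.24 CPM, and PFOA lay wholly within the control range (0.08, SE 0.19, interval -0.31 to 0.47). CEBPB-AS1, on the opposite strand, shares 12.6% of the exon bases.

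ATF3 (ENSG00000162772, chromosome 1, 212565334 to 212620777, plus strand) is a stress-induced transcription factor that ATF4 switches on. It was at 23.1, 21.9 and 20.4 CPM with 8:2 FTOH, against 15.2, 17.9 and 19.8 CPM in control, with no overlap. The difference was 0.31 on the log2 scale (SE 0.13, interval 0.05 to 0.56, adjusted p = 0.525). PFOS held it within a narrow range, at 19.99, 20.9 and 19.7 CPM, while 8:2 FTS (18.8, 21.7 and 15.4 CPM) and PFDS (15.8, 18.8 and 20.5 CPM) spread over nearly the whole control range. With PFOA it was at 18.9, 21.3 and 17.8 CPM and with PFDA at 19.1, 17.4 and 19.3 CPM. With these 5 compounds the fold changes were 0.07 to 0.19, and each group overlapped control. Its promoter held the TGATGNAA letters shown above.

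Among the effectors, STC2 (ENSG00000113739, chromosome 5, 173314723 to 173328447, minus strand), a secreted stanniocalcin, had the largest fold change of the 10 genes with PFOS, PFDS and 8:2 FTS. It was at 21.7, 18.8 and 19.9 CPM with PFOS, 22.04, 17.7 and 20.3 CPM with PFDS and 20.1, 19.6 and 21.7 CPM with 8:2 FTS, against 8.44, 14.3 and 17.2 CPM in control. All 9 of these libraries lay above the highest control. With 8:2 FTOH it was at 21.1, 18.04 and 16.3 CPM, with PFDA at 15.7, 14.1 and 19.3 CPM and with PFOA at 12.2, 15.9 and 17.6 CPM, and these groups overlapped control. The fold changes were 0.60 for PFOS (SE 0.17, adjusted p = 0.375), 0.59 for PFDS (SE 0.17, adjusted p = 0.368), 0.62 for 8:2 FTS (SE 0.17, adjusted p = 0.190) and 0.48 for 8:2 FTOH (SE 0.17, adjusted p = 0.431).

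DDIT4 (ENSG00000168209, chromosome 10, 72273919 to 72276036, plus strand) encodes REDD1, a brake on the growth kinase mTORC1. Its levels were 68.9, 72.6 and 64.5 CPM with PFOS, 66.8, 69.0 and 63.4 CPM with 8:2 FTS and 69.7, 67.7 and 60.5 CPM with 8:2 FTOH, against 34.6, 50.4 and 63.8 CPM in control. The PFOS libraries were just clear of control, the other 2 groups were not, and the control libraries spread more widely than any of the 3. PFOS gave 0.47 (SE 0.17, adjusted p = 0.583), and 8:2 FTS and 8:2 FTOH both gave 0.42 (SE 0.17 each). PFDA (58.5, 56.1 and 71.1 CPM), PFDS (48.4, 56.2 and 71.0 CPM) and PFOA (56.3, 52.8 and 61.0 CPM) overlapped control.

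TRIB3 (ENSG00000101255, chromosome 20, 362835 to 397559, plus strand) encodes a pseudokinase that is induced by ATF4 and restrains it. It was at 41.5, 41.6 and 47.4 CPM with PFOS, 44.3, 45.05 and 35.1 CPM with 8:2 FTS and 45.6, 43.4 and 34.9 CPM with 8:2 FTOH, against 30.2, 32.9 and 34.2 CPM in control. All 9 libraries were above every control, and replicate 3 of 8:2 FTS and of 8:2 FTOH were just above. PFOS differed by 0.42 on the log2 scale (SE 0.12, interval 0.18 to 0.66, adjusted p = 0.375), and 8:2 FTS and 8:2 FTOH by 0.36 each (SE 0.12 each). In a fit of the PFOS and control libraries alone TRIB3 passed (0.43, adjusted p = 0.0356). With PFOA it was at 33.7, 30.5 and 32.8 CPM, within the control range (fold change 0.00, SE 0.12, interval -0.25 to 0.24). PFDA (30.6, 33.9 and 39.9 CPM) and PFDS (26.9, 39.3 and 40.6 CPM) overlapped control, and PFDS replicate 1 was below every control.

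ASNS (ENSG00000070669, chromosome 7, 97851677 to 97872542, minus strand), the asparagine synthetase, was at 21.1, 19.5 and 19.1 CPM with PFOS and 19.2, 19.5 and 19.6 CPM with 8:2 FTS, against 12.7, 13.6 and 17.8 CPM in control. Both groups lay above control, by 0.44 (SE 0.13, adjusted p = 0.397) and 0.41 (SE 0.14, adjusted p = 0.366). PFDA gave 17.4, 17.3 and 18.2 CPM and 8:2 FTOH 17.5, 17.8 and 18.5 CPM, close to the highest control. PFOA gave 22.2, 17.4 and 18.1 CPM (0.38, SE 0.14, adjusted p = 0.319), with 1 library just inside the control range. PFDS replicate 3, at 13.5 CPM, lay far below the 19.7 and 20.3 CPM of the other PFDS libraries. A same-strand gene, ENSG00000284707, covers 49.3% of the ASNS exon bases, so the ASNS count rests mainly on the rest of its exons. ASNS, the other gene with TGATGNAA in its window, was above control by 0.26 to 0.44 with all 6 compounds, against 0.07 to 0.31 for ATF3. Of the genes without it, STC2, DDIT4, CEBPB and SESN2 were also above control with all 6. ATF4, DDIT3, TRIB3 and PPP1R15A were not, and the part of the letters was not tested.

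SESN2 (ENSG00000130766, chromosome 1, 28259518 to 28282491, plus strand) encodes sestrin 2, a leucine sensor upstream of mTORC1. It was at 35.6, 36.4 and 34.4 CPM with 8:2 FTS, against 26.6, 32.4 and 29.03 CPM in control, with no overlap (0.27, SE 0.10, interval 0.06 to 0.48, adjusted p = 0.453). With PFOS it was at 35.7, 36.8 and 31.2 CPM and with 8:2 FTOH at 36.4, 35.9 and 30.9 CPM, so 2 libraries of each lay above control and 1 within it (0.24, SE 0.10 each). PFDS (29.6, 31.4 and 36.2 CPM), PFOA (27.3, 30.2 and 32.7 CPM) and PFDA (26.9, 30.1 and 32.7 CPM) differed from control by 0.03 to 0.15, with overlap.

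PPP1R15A (ENSG00000087074, chromosome 19, 48872212 to 48876059, plus strand) encodes GADD34, which brings a phosphatase to eIF2 and so ends the response. Its mean lay below control for 5 of the 6 compounds, or 4 with library size scaling alone, where 8:2 FTS was just above control. With PFOA it was at 20.1, 27.1 and 24.4 CPM and with 8:2 FTOH at 34.01, 35.01 and 30.9 CPM, against 26.6, 36.6 and 29.1 CPM in control. The PFOA difference was -0.36 (SE 0.12, interval -0.61 to -0.12, adjusted p = 0.285) and 1 PFOA library reached into the control range. PFDS (24.8, 23.5 and 32.5 CPM), PFOS (26.1, 28.7 and 30.2 CPM), PFDA (29.6, 26.2 and 30.6 CPM) and 8:2 FTS (28.7, 32.6 and 28.2 CPM) overlapped control, with fold changes of -0.18 to -0.05. Control replicate 2, at 36.6 CPM, was above every compound library. The 8:2 FTOH difference was 0.12 (SE 0.12), and without control replicate 2 the 6 compounds together stood at 0.03, against -0.11 with it. It is the gene with TGACGTCA in its window.

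With the 6 compound groups combined against control, 6 of the 10 genes were at an unadjusted p under 0.05 (background 9.98% of all genes) and 0 passed after adjustment in edgeR (0.35% of all genes did). Without control replicate 1 the count of 6 became 1 (background 8.29%) and the median of the 10 genes 0.13, against 0.21 over all libraries. The 3 neuronal markers that fell moved with this comparison, and their part in it was not tested. STC2 stood at 0.47 (SE 0.13, adjusted p = 0.124), CEBPB at 0.38, DDIT4 at 0.35, ASNS at 0.34 (SE 0.10, adjusted p = 0.166), TRIB3 at 0.23 and SESN2 at 0.16. ATF3 was at 0.14, DDIT3 at 0.19, ATF4 at -0.02 (interval -0.15 to 0.10) and PPP1R15A at -0.11. DESeq2 called 1 of the 10, STC2 (0.47, adjusted p = 0.0409), where it called 0.788% of all genes. In the edgeR test for any difference among the 7 groups 0 of the 10 passed (0.0322% of all genes did). There, 6 had an unadjusted p under 0.05 (background 5.91%), or 3 without PFOA replicate 1 (background 4.39%). The lowest adjusted p-values were 0.323 for TRIB3 and 0.449 for STC2.

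These results leaned on the control libraries. Control replicate 1 was the lowest of the 3 for all 10 genes, where it was the lowest for 34.4% of all genes. Control replicate 3 was the highest for 7 (ATF3, DDIT3, TRIB3, DDIT4, CEBPB, STC2 and ASNS), against 36.1% of all genes, and control replicate 2 for ATF4, SESN2 and PPP1R15A. The highest control was 2.04 times the lowest for STC2 and 1.84 times for DDIT4, while the median over 13001 genes at 5 CPM or more was 1.16. The 10 genes thus varied largely in step among the controls alone.

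Leaving out control replicate 3, the library with the high mitochondrial share, STC2 passed for PFOS (0.83, adjusted p = 0.0248), PFDS (0.82, adjusted p = 0.0365), 8:2 FTS (0.85, adjusted p = 0.0207) and the 6 compounds together (0.69, adjusted p = 0.0127). For the 6 together DDIT4 (0.57, adjusted p = 0.0231) and ASNS (0.50, adjusted p = 0.0355) passed as well. More genes at large passed without that library, 24 with PFOS and 41 with 8:2 FTS, against 6 and 21 over all libraries. Without control replicate 1 the fold changes of STC2 and DDIT4 were smaller. STC2 was then at 0.36 for PFOS, 0.35 for PFDS, 0.38 for 8:2 FTS and 0.23 for the 6 together (adjusted p = 0.648), and DDIT4 at 0.15 for the 6 together. Without PFDS replicate 3, ASNS passed for the 6 together (0.37, adjusted p = 0.0421), where 217 of all genes passed against 87 over all libraries. Which control library is nearer to the untreated state of these cells cannot be told from 3 libraries.

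**Figure D3:**
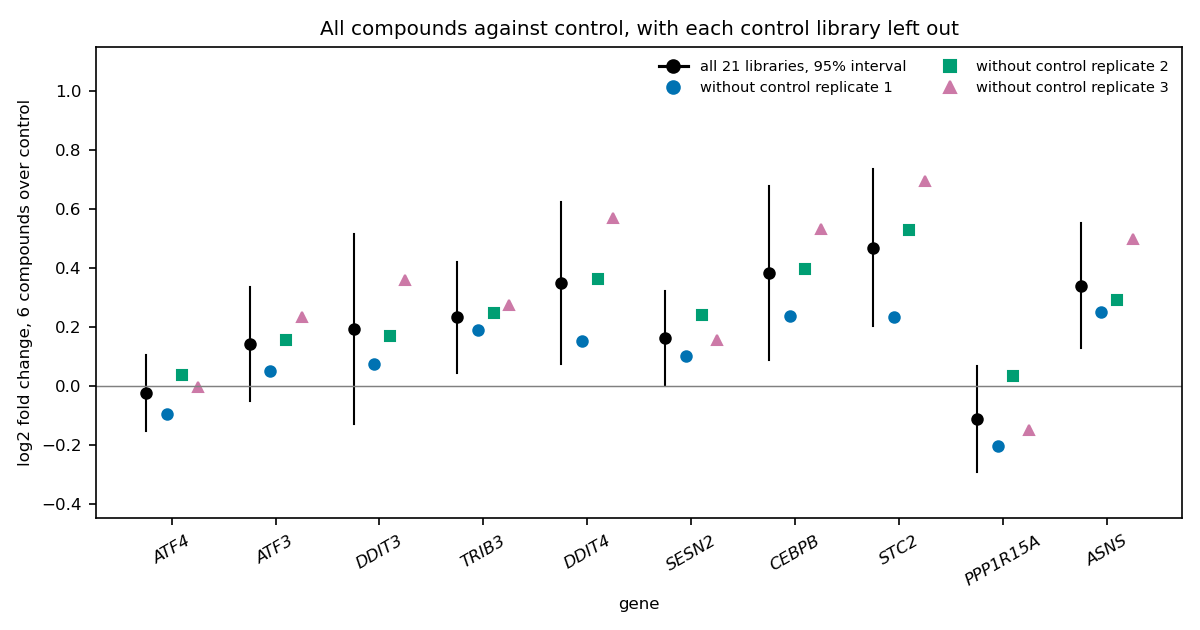
Log2 fold change of the 6 compounds together over control (vertical axis) for each of the 10 genes. Black points and lines are the value and 95% interval over all 21 libraries, and colored symbols the value without 1 control library. For STC2 the value is 0.47 over all libraries, 0.23 without control replicate 1 and 0.69 without control replicate 3.

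The compounds were then compared with each other at the same dose and time, in 8 pairs chosen by structure. None of the 80 differences passed (edgeR, lowest adjusted p = 0.250, with 0 calls by DESeq2 as well), and 11 had an unadjusted p under 0.05. All 80 intervals lay within 2-fold either way and 66 within 1.5-fold. Over all genes the calls after adjustment were 0.00402% for PFDS against PFOS and for 8:2 FTOH against PFOA, and 0% for the other 6 pairs.

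PFOS and PFOA differ in the head group, a sulfonic against a carboxylic acid. All 10 genes were higher with PFOS than with PFOA (49.7% of all genes were), with a median of 0.23. TRIB3 was at 41.5 to 47.4 CPM with PFOS and 30.5 to 33.7 CPM with PFOA (0.43, SE 0.12, interval 0.18 to 0.67, adjusted p = 0.958). DDIT4, CEBPB (0.48, SE 0.19) and STC2 (0.39, SE 0.17) were also clear of overlap, making 4 genes where 6.51% of all genes had all PFOS libraries above all PFOA libraries, and 0 lay the other way (background 6.35%). At an unadjusted p under 0.05 there were 4, TRIB3, CEBPB, STC2 and ATF4 (background 4.9%). The count was 1 without PFOA replicate 1 (background 2.99%) and 2 without PFOS replicate 2 (background 2.67%). For the longer pair, PFDS against PFDA, 5 of the 10 differences were above 0 (background 49.6%), 0 had an unadjusted p under 0.05 (background 5.59%), and the largest was STC2 at 0.28 (SE 0.17, interval -0.06 to 0.62). ATF4 alone had its PFDS libraries above all PFDA libraries (background 4.2%), and 0 genes were below (background 5.23%). Over both pairs, sulfonates against carboxylates, all 10 differences were above 0 (background 48.4%), with a median of 0.13. Of these, 5 were at an unadjusted p under 0.05 (ATF4 0.17, TRIB3 0.23, SESN2 0.16, CEBPB 0.35 and STC2 0.34, background 7.13%), and 0 passed after adjustment, where 0% of all genes did. Without PFDA replicate 1 the count was 3 (background 5.73%). With library sizes left unscaled by TMM, 8 of the 10 differences stayed above 0.

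Chain length was compared within each head group. PFDS and PFOS share the sulfonic acid, and PFDS has the longer perfluoroalkyl chain. All 10 genes were lower with PFDS than with PFOS (48.9% of all genes were higher), and for DDIT3 (-0.44, SE 0.21, interval -0.87 to -0.02) and TRIB3 (-0.28, SE 0.12, interval -0.52 to -0.03) the 3 PFDS libraries lay below all 3 PFOS libraries, as for 4.81% of all genes. No gene of the 10 had all PFDS libraries above (background 3.94%). DDIT3 and TRIB3 were also the 2 at an unadjusted p under 0.05 (background 4.37%), and both had an adjusted p of 0.999. The count of 2 was 0 without PFOS replicate 3 (background 4.14%) or PFDS replicate 1 (background 4.17%). It was 1 without PFOS replicate 1 (background 4.08%) or 2 (background 3.62%), and 3 without PFDS replicate 3 (background 6.75%). STC2 had nearly equal group means, at 17.7 to 22.04 CPM with PFDS and 18.8 to 21.7 CPM with PFOS (-0.01, interval -0.35 to 0.33). PFDA against PFOA gave 5 differences above 0 (background 50.6%), and PPP1R15A was the 1 gene at an unadjusted p under 0.05 (background 2.93%), at 0.27 (SE 0.12, interval 0.03 to 0.52, adjusted p = 1.00). Neither direction had a gene without overlap (backgrounds 4.81% above and 5.16% below). Over both head groups, longer against shorter chain, 3 of the 10 differences were above 0 (background 49.5%), and DDIT3 alone had an unadjusted p under 0.05 (-0.30, SE 0.15, background 3.89%). Each of these single genes fell back over 0.05 when some single libraries were left out, PFDA replicate 1 for PPP1R15A and PFDS replicate 1 for DDIT3 among them. The chain effect in the sulfonates minus that in the carboxylates was below 0 for all 10 genes, with a median of -0.18 (48.8% of all genes were above 0), and TRIB3 alone had an unadjusted p under 0.05 (background 3.49%), at -0.39 (SE 0.17, interval -0.73 to -0.04, adjusted p = 0.998). Without PFOS replicate 3, PFDA replicate 3 or PFDS replicate 1 the count there was 0 (backgrounds 3.39%, 3.76% and 3.52%). It was 2 without PFOS replicate 1 or PFDA replicate 2 (backgrounds 3.42% and 3.19%) and 3 without PFDS replicate 3 (background 5.53%).

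The fluorotelomers 8:2 FTS and 8:2 FTOH share the fluorotelomer chain and differ in the head group, a sulfonic acid against an alcohol. Between them 0 of the 10 genes had an unadjusted p under 0.05 (background 3.26%), and TRIB3 (0.00, interval -0.25 to 0.25) and DDIT4 (0.01, interval -0.35 to 0.36) had nearly equal means. DDIT3 (-0.30, interval -0.73 to 0.14) and ATF3 (-0.23, interval -0.49 to 0.03) were the most negative. ASNS alone had its 8:2 FTS libraries above all 8:2 FTOH libraries (background 4.23%), and 0 genes were below (background 4.2%). Against the other sulfonic acids, 8:2 FTS was within -0.38 to 0.08 of PFOS and within -0.05 to 0.21 of PFDS, with 0 at an unadjusted p under 0.05 (backgrounds 2.86% and 4.1%). In neither pair was a gene without overlap, where the background was 4.55% above and 4.92% below PFOS, and 4.17% above and 3.67% below PFDS. Between 8:2 FTOH and PFOA, 9 of the 10 differences were above 0 (background 49.4%) and 4 had an unadjusted p under 0.05 (background 6.52%). The count was 2 without PFOA replicate 1 (background 3.94%) or without replicate 1 of 8:2 FTOH (background 5.94%). PPP1R15A, at 30.9 to 35.01 CPM with 8:2 FTOH and 20.1 to 27.1 CPM with PFOA, gave the lowest adjusted p of all 8 pairs (0.48, SE 0.12, interval 0.23 to 0.73, adjusted p = 0.250). It passed without the filter on low counts (0.48, adjusted p = 0.0395), where 23 of all genes passed, against 1 with the filter. TRIB3 and CEBPB were also clear of overlap between these groups, making 3 genes where the background was 5.44%, and 0 were below (background 6.1%).

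**Figure D4:**
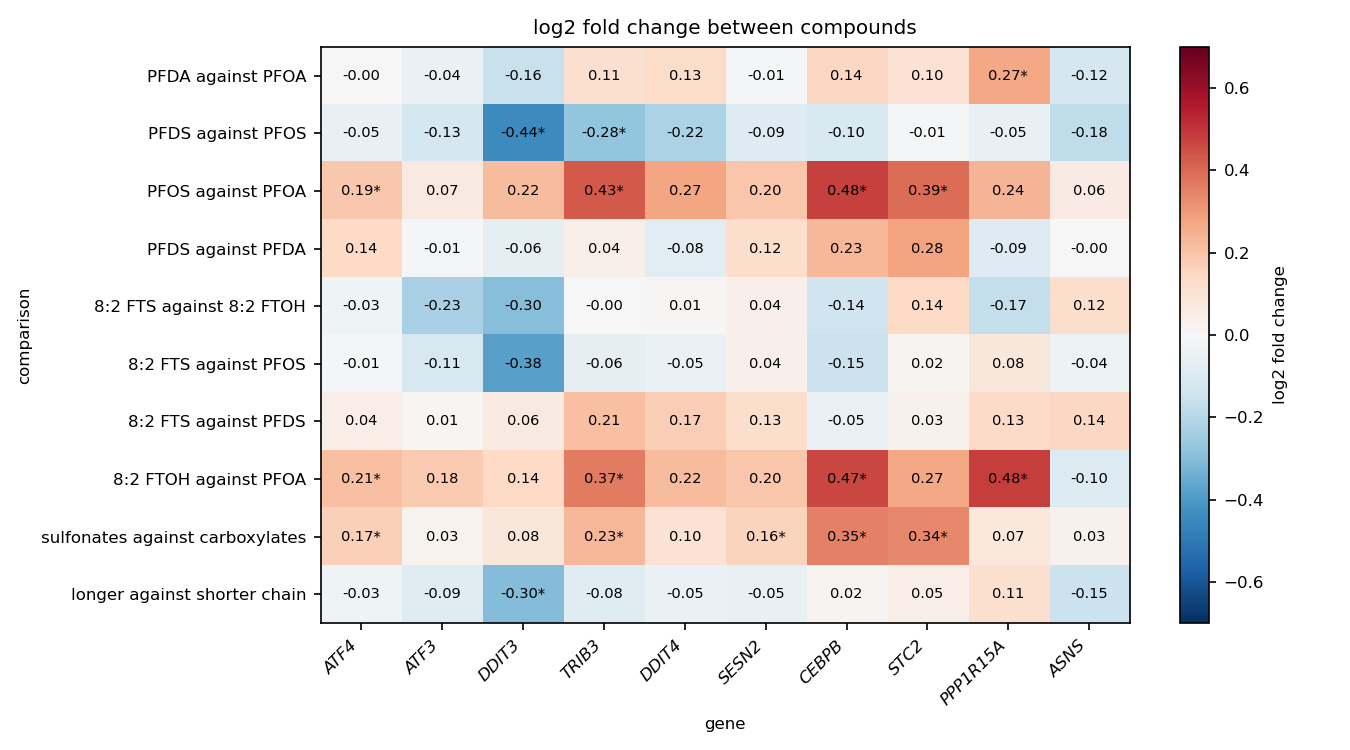
Log2 fold change of the 10 genes (columns) between pairs of compounds and for the combined head group and chain length contrasts (rows), the compound named first over the one named second. An asterisk marks an unadjusted p under 0.05, and no value passed after adjustment over all genes. The row of PFOS against PFOA has no value below 0 and the row of PFDS against PFOS none above 0.

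Across the 21 libraries the 10 genes mostly varied in the same direction. Pearson's r of log2 CPM was above 0 for 42 of the 45 pairs of genes, with a median of 0.46 (median Spearman's rho 0.46). The libraries share their depth, scaling and control group, so these are descriptions. No value for pairs of other genes is given beside them. After subtracting each group's mean, r was still above 0 for 37 of 45 pairs, with a median of 0.36, so much of the shared variation lay among replicates. By Pearson's r over all libraries ATF3 and DDIT3 were most alike (r = 0.81, rho = 0.71, and r = 0.72 without 8:2 FTS replicate 3 and control replicate 1). By rho it was TRIB3 with CEBPB and with DDIT4 (0.81 each), and without the 2 farthest libraries TRIB3 with SESN2 (r = 0.84). DDIT4 with STC2 (r = 0.77, rho = 0.55) and TRIB3 with CEBPB (r = 0.75) followed by r. ATF4, PPP1R15A and ASNS had the lowest mean r with the other genes (0.29, 0.26 and 0.17), and PPP1R15A and ASNS ran against each other (r = -0.47, rho = -0.44), which weakened to -0.20 without PFOA replicate 1 and control replicate 2.

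**Figure D5:**
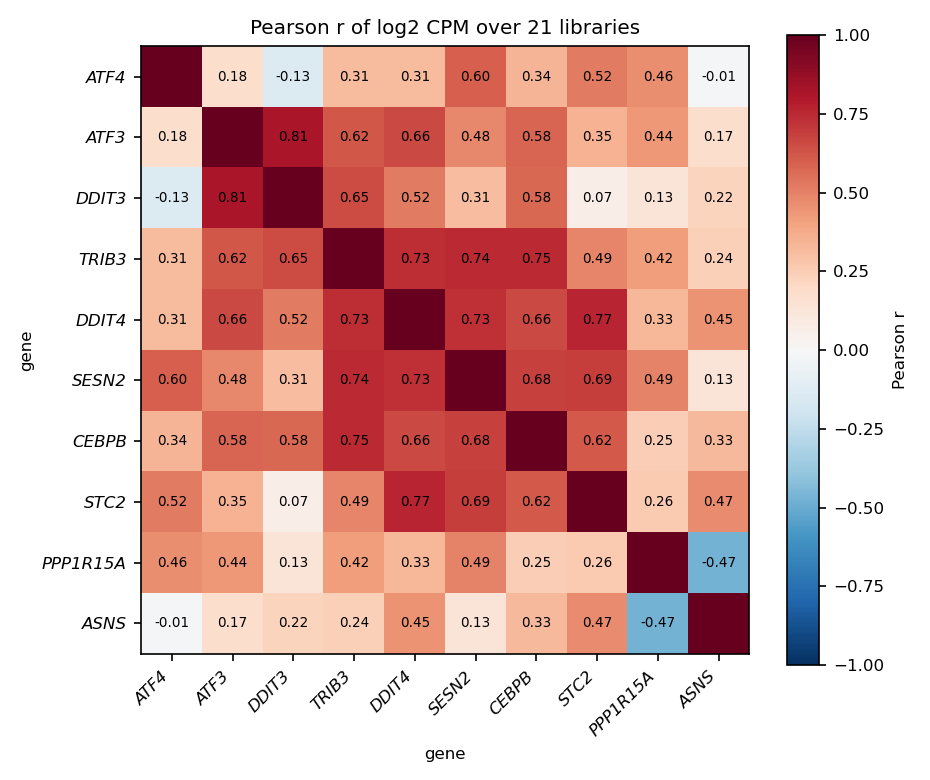
Pearson's r of log2 CPM over 21 libraries between each pair of the 10 genes, from -1 (blue) to 1 (red). TRIB3, DDIT4, SESN2 and CEBPB form a block of values from 0.66 to 0.75, and PPP1R15A with ASNS is the lowest pair at -0.47.

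Among 13087 genes at a mean of 5 CPM or more, those outside the 10 with the highest mean r over the 21 libraries with all 10 were PCK2 (0.60), the mitochondrial phosphoenolpyruvate carboxykinase, BNIP3 (0.60), a mitophagy receptor, MFAP4 (0.58), H6PD (0.58) and HLA-C (0.55). Single genes had closer partners. STC2 was nearest to HK2, a hexokinase (r = 0.89), and to MTHFD2, an enzyme of mitochondrial folate metabolism (0.88). TRIB3 was nearest to HLA-C (0.89) and PCK2 (0.84), DDIT4 to BNIP3 (0.88) and the seryl-tRNA synthetase SARS1 (0.87), and CEBPB to ASMTL (0.79) and PCK2 (0.76). For DDIT3 they were TTC8 (0.85) and AKNA (0.84), for ATF3 MTMR14 (0.80) and AKNA (0.78), and for ASNS CPSF6 (0.87) and KCNT2 (0.87). For ATF4 they were PRKAR1B and PRCC (0.79 each), for SESN2 GALNT16 and AGBL5 (0.81 each), and for PPP1R15A MMP24 (0.81) and C6orf89 (0.80). Of these, ASMTL, MFAP4, MMP24, MTHFD2, PRCC, PRKAR1B, GALNT16, AGBL5 and C6orf89 overlap the exons of another expressed gene.

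The wider pathway was followed through lists of related genes. These lists were chosen with earlier results of these data known, so their counts beside the shares of all genes are descriptions. DESeq2 gave an adjusted p to 2 of the 10 genes for PFOA and to 0 for PFDA. List genes may have lacked one there too and could then not be called, so the DESeq2 counts below are limited for these compounds. Of 20 known ATF4 targets of amino acid supply, all tested with edgeR, 1 rose with PFOS, 2 with 8:2 FTS, 1 with 8:2 FTOH and 0 with PFOA, PFDA and PFDS, and 0 fell. At an unadjusted p under 0.05 and above control there were 11 with PFOS (3.26% of all genes), 11 with 8:2 FTS (3.57%) and 9 with 8:2 FTOH (3.55%). There were 6 with PFDS (2.56%), 2 with PFDA (4.04%) and 2 with PFOA (4.46%). Without control replicate 1 these counts were 7 with PFOS, 9 with 8:2 FTS, 5 with 8:2 FTOH, 5 with PFDS, 1 with PFDA and 1 with PFOA. With PFDA the count was 6 without control replicate 3, and with PFOA 1 without control replicate 2. DESeq2 called 1 with PFOS, 2 with 8:2 FTS, 3 with 8:2 FTOH (SLC7A11, SLC7A5 and the partner subunit SLC3A2) and 1 with PFDS (SLC7A11). The list's median fold change was 0.21 for PFOS, 0.21 for 8:2 FTS, 0.17 for 8:2 FTOH, 0.15 for PFDS, 0.10 for PFDA and 0.05 for PFOA. SLC7A11, which encodes the cystine transporter and overlaps SLC7A11-AS1, was at 17.5 ± 2.13 CPM with 8:2 FTOH (SD, n = 3), 12.7 ± 1.09 with 8:2 FTS and 12.4 ± 1.30 with PFOS, against 6.29 ± 1.82 CPM in control. Its fold changes were 1.48 (adjusted p = 3.21e-07), 1.02 (adjusted p = 0.00143) and 0.97 (adjusted p = 0.00328), so it moved further than any of the 10 genes. SLC7A5, a transporter of large neutral amino acids, rose with 8:2 FTS (128 ± 19.5 CPM, against 92.3 ± 5.73 CPM in control, 0.48, adjusted p = 0.0160). Both rose for the 6 compounds together (0.92 and 0.32).

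The eIF2 kinases and the eIF2 and eIF2B subunits, the phosphatase subunits and the paralogs of the 10 genes had no edgeR call. The counts at an unadjusted p under 0.05 that follow are to be read against the 5.58% to 10.1% of all genes in either direction for the 6 compounds. Of 15 genes for the eIF2 kinases and the eIF2 and eIF2B subunits, 0 passed for any compound in edgeR. There were 0 to 2 per compound at an unadjusted p under 0.05, and list medians were -0.03 to 0.05. DESeq2 called 0 of those to which it gave an adjusted p. EIF2AK1 and EIF2AK2, the haem and double-stranded RNA kinases, were at -0.13 and -0.14 for the 6 together (unadjusted p = 0.0256 and 0.0226), and both overlap other expressed genes. Of 15 phosphatase subunits and paralogs of the 10 genes, 11 were tested and 0 passed in edgeR, with 2 to 3 per compound at an unadjusted p under 0.05 and medians of -0.14 to 0.05. The 2 with the smallest p among the 7 groups were TRIB2, a paralog of TRIB3, at -0.30 for the 6 together (adjusted p = 0.0637, called by DESeq2 there and for PFOA), and CEBPG, a partner of ATF4, at 0.14 (adjusted p = 0.395).

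Of 20 further ATF4 and CHOP targets, 18 were tested and 0 passed for any single compound in edgeR (3 to 6 at an unadjusted p under 0.05, medians -0.03 to 0.12), while DESeq2 called VEGFA for PFOS and for 8:2 FTS. VEGFA, the vascular growth factor, rose for the 6 together (0.29, adjusted p = 0.0170). ADM2 was at 0.65 for 8:2 FTOH (adjusted p = 0.223) and overlaps SBF1. Of 20 aminoacyl-tRNA synthetase genes 0 passed in edgeR (2 to 5 per compound at an unadjusted p under 0.05, medians -0.01 to 0.05), DESeq2 called CARS1 and IARS1 for 8:2 FTS and for the 6 together, and CARS1 (0.36, adjusted p = 0.0618) and MARS1 (0.23, adjusted p = 0.319) were both highest with 8:2 FTS. Of 20 genes of the ATF6 and XBP1 arms of the unfolded protein response, 0 passed for a single compound in edgeR, 1 to 9 had an unadjusted p under 0.05, and the medians were below 0 for all 6 (-0.20 to -0.05). MANF, a secreted protein of the endoplasmic reticulum, fell for the 6 together (-0.47, adjusted p = 0.00978), was called by DESeq2 for PFOS and 8:2 FTOH as well, and HSP90B1, an endoplasmic reticulum chaperone, was at -0.21 (adjusted p = 0.160).

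Among other programs, immediate early genes were called in edgeR with every compound, while hypoxia and p53 targets were called with no single compound. Of 16 hypoxia targets, 15 were tested and 0 passed for a single compound in edgeR (3 to 7 at an unadjusted p under 0.05, all above control, where 2.56% to 4.46% of all genes were, medians 0.09 to 0.24), while VEGFA passed for the 6 together and SLC2A1, a glucose transporter, was at 0.27 (adjusted p = 0.124). All 16 p53 targets were tested and 0 passed in edgeR (1 to 2 at an unadjusted p under 0.05, medians -0.04 to 0.07). DESeq2 called 0 of those to which it gave an adjusted p, which for PFOA and PFDA may be few. BBC3 was at 0.24 for the 6 together (adjusted p = 0.286) and RRM2B at 0.23 for PFOA (adjusted p = 0.423). Of 16 immediate early genes, 14 were tested, and 2 fell with PFOA, PFOS, PFDA and 8:2 FTS and 1 with PFDS and 8:2 FTOH, with medians of -0.28 to -0.08. For PFOA and PFDA, DESeq2 gave EGR1 and FOS no adjusted p. EGR1 was at 12.6 ± 3.47 CPM with PFOS, against 35.8 ± 8.82 CPM in control (-1.53, adjusted p = 3.70e-08). FOS was at 1.38 ± 0.486 CPM with PFOS, against 7.50 ± 0.934 CPM in control (-2.49, adjusted p = 9.09e-07).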

How the data were processed

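Per the submitters' processing notes, the authors used FastQC, MultiQC, HISAT2, SAMtools, featureCounts and DESeq2 with hg38, and per the file headers featureCounts 2.0.1 made the deposited raw counts per gene. Counting ignored strand, although per the labels the ribosome-depleted libraries were stranded, and reads that touched several genes were left out. The authors' normalized table was not used here. Totals ran from 7680024 to 30429746 counts per library (median 14633793), and no libraries were identical.

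Gene identifiers were matched to symbols (99.97% of 62656). Genes were filtered with filterByExpr (24879 left), scaled with TMM and fitted over all 21 libraries with edgeR 4.0.16 (quasi-likelihood, robust, biological coefficient of variation 0.1124) in R 4.3.3. Adjusted p-values are Benjamini-Hochberg over all genes within each of 19 comparisons, called at 0.05. Log2 CPM used a prior count of 2. Alternatives were DESeq2 1.42.0 size factors and its test, library size scaling, no filter, a filter at a mean CPM of 1 and 10 counts, a fit restricted to the compared groups, a replicate block, and leaving out libraries. The procedure was tested on simulated data of 24320 genes, with 2 false calls.

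Genes named outside the 10 were those of the lists past an adjusted p of 0.05 and the 2 of each list with the smallest p in the 7-group test. SLC3A2, IARS1, the cycling marker MKI67 and the neuronal markers NEFM, GAP43 and MAP1B were named after their values were seen. The 10 genes and the lists were chosen with earlier results of these data known. Intervals are 95%, and Poisson intervals cover counting error only.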

Additional observations from a re-analysis of the deposited data

How the results depend on the processing

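In the main edgeR fit of all 21 libraries, 0 of the 10 genes passed in any of the 19 comparisons. Without the filter on low counts the number passing was 2 for PFOS (STC2 and TRIB3), 1 for PFDS (STC2), 1 for 8:2 FTS (STC2), and 2 for the 6 compounds together (STC2 and DDIT4), each against control. It was 2 in the 7-group test (STC2 and TRIB3, of 269 over all genes) and 1 for 8:2 FTOH against PFOA (PPP1R15A, of 23). A fit of only the groups compared gave 1 for PFOS (TRIB3). The DESeq2 test gave 1 for the 6 together (STC2), where it called 0.788% of all genes. Leaving out 1 library at a time gave 0 to 1 for PFOS, PFDS and 8:2 FTS and 0 to 3 for the 6 together, and 0 in the other 15 comparisons. Leaving out control replicate 3 and 8:2 FTOH replicate 3 together gave 1 for PFOS, 1 for PFDS, 1 for 8:2 FTS and 3 for the 6 together. Fewer libraries remain in those fits, and otherwise the cause was not tested. DESeq2 size factors, library size scaling and the stricter filter each left 0.

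Of the 70 fold changes against control, the 6 together included, 21 changed sign under at least 1 alternative. Their values over all libraries lay between -0.13 and 0.21, and 0 of them had an unadjusted p under 0.05.

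The replicate numbers did not pair the libraries: deviations of libraries with the same number had a median correlation of 0.0016, 7 of 63 pairs exceeded 0.1, and 7 of 21 libraries correlated best with their own number. With the replicate number as a block, 0 of the 10 genes passed in each comparison, and the calls over all genes for the 6 together were 67 instead of 87.

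Counts of calls over all genes moved widely. For PFOA the count was 8, and 1 to 136 when 1 library was left out. With PFOS it was 6 and 2 to 24, with PFDA 2 and 1 to 21, with PFDS 6 and 1 to 100, with 8:2 FTS 21 and 4 to 41, with 8:2 FTOH 8 and 1 to 32, and for the 6 together 87 and 4 to 217. Without the filter it was 161 with PFOA, 52 with PFOS, 68 with PFDA, 86 with PFDS, 126 with 8:2 FTS, 107 with 8:2 FTOH and 286 for the 6 together. Library size scaling put 9 of the 10 genes above control with PFDS, instead of 7.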
